A study of Mus musculus with 9 samples.

Results

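The genes described here encode 38 proteins of ribosome biogenesis in the mouse heart. They were taken by symbol from the table of read counts, which lists 54532 genes, and all 38 were found. By role, 4 serve transcription by RNA polymerase I, 3 are proteins of the box C/D and 4 of the box H/ACA small nucleolar ribonucleoprotein particles (snoRNPs), 6 are multifunctional nucleolar proteins, 9 belong to the small-subunit processome, 4 act in pre-40S maturation and export, and 8 in pre-60S assembly.

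RNA was sequenced from hearts of 9 male C57BL/6J mice aged 8 to 10 weeks, with 3 independent animals in each of 3 groups and the wild-type genotype throughout. In the sham group the chest was opened and a thread was passed under the left anterior descending coronary artery without being tied. Mice of the MIRI group (myocardial ischemia/reperfusion injury) had that artery tied for 30 min, followed by 24 h of reperfusion, and received saline. The GXNI group underwent the same ischemia and reperfusion (I/R) and was given Guanxinning injection, an injectable preparation of danshen and chuanxiong, intravenously at 9 mL/kg within 10 min of ischemia. The paper states that every group, so also sham, received drug or saline by the tail vein in that time. The comparison of MIRI with sham asks what I/R changed, and that of GXNI with MIRI asks what Guanxinning changed.

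Ribosomes are made mainly in the nucleolus. RNA polymerase I transcribes a long precursor RNA there, the processome and the snoRNPs fold, cut and chemically modify it, and assembly factors then carry the pre-40S and pre-60S particles to the cytoplasm. Cells raise the production of these factors when they grow or are activated, and the transcription factor MYC is known to drive many of their genes. The heart muscle enlarges mainly by growth of existing cardiomyocytes, so the process is studied there in connection with hypertrophy.

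The total count was between 17119454 and 22811295 reads per library, and mitochondrial genes took 23% to 29.8% of it. Levels are given as CPM, that is counts scaled to a common library size, after TMM scaling over the 9 libraries, always in the order of replicates 1, 2 and 3. Of the 38 genes, 37 passed the filter on low counts in every comparison, with between 139 and 9939 counts per library. The labels name both the heart and cardiomyocytes. Markers of other cell types were present in every library, with sums of 613 to 1078 CPM for 6 endothelial genes and 535 to 1144 CPM for 7 fibroblast genes. The RNA was therefore treated as that of whole tissue. In such bulk RNA, fewer cells of a type and less RNA per cell cannot be told apart.

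The I/R libraries did not fall together by their labels, while each sham library was most like another sham library (0.987 to 0.992). By Spearman correlation over 15207 genes, the library labelled MIRI 2 was most like GXNI 1 (0.982), GXNI 3 was most like MIRI 3 (0.987) and GXNI 1 was most like sham 1 (0.984). GXNI 2 was most like MIRI 1 (0.980), while MIRI 1 and MIRI 3 were each most like GXNI 3 (0.986 and 0.987). An exchange of the labels of MIRI 2 and GXNI 3 is possible, but it was not tested and the counts alone could not settle it. Each MIRI or GXNI value that follows holds for the labels as deposited. A further comparison was therefore made of all 6 I/R libraries, as the mean of the MIRI and GXNI groups, with the 3 sham libraries. It does not set I/R mice against each other, but its fit keeps the 3 groups, so its p values still depend on the labels. Values without the library labelled MIRI 2, without GXNI 1, or without MIRI 2 and GXNI 3 together stand beside the results they change.

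Most members had higher levels than every sham library in 5 of the 6 I/R libraries, by little in MIRI 2. Relative to the sham mean on the log2 CPM scale, the median of the 37 members was 0.999, 0.23 and 1.24 in the MIRI libraries 1 to 3 and -0.02, 0.76 and 1.21 in the GXNI libraries 1 to 3. Sham libraries 1 to 3 had medians of 0.05, -0.08 and -0.00, and the median of all 15207 genes stayed between -0.02 and 0.01 in every library. The libraries MIRI 1, MIRI 3, GXNI 2 and GXNI 3 thus stood well above sham, MIRI 2 stood slightly above it, and GXNI 1 lay at the sham level. In MIRI 1, 35 of 37 members were above every sham library, where 39.9% of all genes were. The count was 28 in MIRI 2 (33.8% of all genes), 36 in MIRI 3 (41.2%), 12 in GXNI 1 (31.5%), 35 in GXNI 2 (36.2%) and 34 in GXNI 3 (41.3%).

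**Figure D1:**
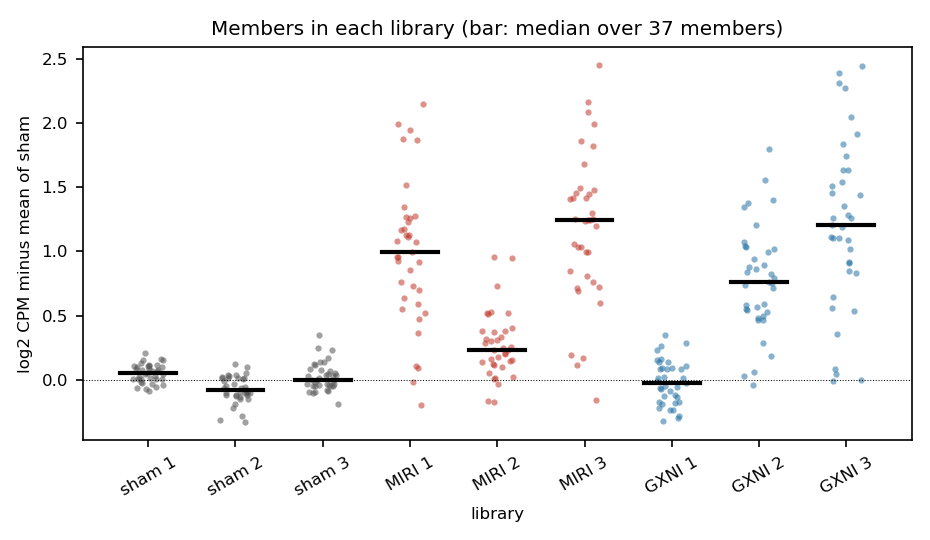
Difference of each of the 37 tested members from its sham mean (y axis, log2 CPM) in each library (x axis), with 1 point per gene and a black bar at the median. The bars stand at 0.999 and 1.24 in MIRI 1 and MIRI 3 and at 0.76 and 1.21 in GXNI 2 and GXNI 3, but at 0.23 in MIRI 2 and -0.02 in GXNI 1.

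The members varied more among the mice of an I/R group than among sham mice. The SD of a member's log2 CPM within a group had a median of 0.10 in sham, 0.54 in MIRI and 0.64 in GXNI, while the median over all genes was 0.15, 0.34 and 0.36. MIRI 3 and GXNI 3 were each the highest of the 9 libraries for 17 of the 37 members. The lowest value belonged to sham 2 in 17 members and to GXNI 1 in 11.

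Against sham, 17 of the 37 members were called higher in MIRI and 0 lower, the call requiring a change of 1.5-fold or more with an unadjusted p no greater than 0.01 in edgeR's quasi-likelihood test. Over all 14644 genes tested, 6.15% were called higher and 2.82% lower. The median log2 fold change of the members was 0.91, beside -0.00 for all genes, and it was positive in 36 of 37. In 27 members every MIRI library was above every sham library, as it was for 17.4% of all genes. With Benjamini-Hochberg adjustment and a limit of 0.05, however, edgeR called 0 of the members and 0.0137% of all genes. An unadjusted p under 0.05 was found in 30 of the 37 members and in 4149 of the 14644 genes. DESeq2, run without a filter on low counts, called 23 members higher at the same fold and unadjusted p, beside 5.34% of 27898 genes. As these include genes with few reads, that share cannot be set directly against the share of edgeR. DESeq2 called 22 members at an adjusted p of at most 0.05, beside 12.7% of the genes for which it gave an adjusted p. The members that it called in MIRI beyond the 17 of edgeR were Gar1, Dkc1, Npm1, Wdr43, Tsr1 and Nop2. In the accounts by role, called means called by edgeR unless DESeq2 is named. Without the library labelled MIRI 2 edgeR called 31 members, all 17 included, and 4592 genes in either direction, against 1313 genes with all 6 libraries. Without any 1 sham library it called 3 members and 514 to 564 genes. Without MIRI 1 it called 3 members and 621 genes, and without MIRI 3 it called 5 members and 703 genes. With all 9 libraries in the fit 3 members and 800 genes were called.

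GXNI was compared with the same 3 sham libraries. The median log2 fold change was 0.79, beside 0.01 for all genes, and 34 of 37 values were positive. By edgeR 0 members were called higher or lower, where 2.67% and 1.54% of all genes were. An unadjusted p under 0.05 was found in 22 members and in 2914 of the 14695 genes tested. The adjusted p reached 0.05 in 0 members and 0% of all genes. Every GXNI library lay above every sham library in 11 members (13.9% of all genes). DESeq2 called 9 members higher at the same fold and unadjusted p, beside 3.56% of 27956 genes without a filter on low counts. It called 4 members at an adjusted p of at most 0.05, beside 5.39% of the genes with an adjusted p. Without the library GXNI 1, edgeR called 29 members higher and 2665 genes in either direction, against 618 genes with all 6 libraries. Without GXNI 3 the median log2 fold change of the members was 0.41.

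Over all 6 I/R libraries, 5 of 37 members were called higher than in sham and 0 lower, where 4.09% and 2.5% of the 15207 genes tested were called. These were Nop58, Gnl3, Rrp12, Bysl and Grwd1. The median log2 fold change was 0.85, beside 0.00 for all genes, with 34 of 37 values positive. An unadjusted p under 0.05 was found in 27 members and in 4011 of the 15207 genes. An adjusted p of at most 0.05 was reached in 0 members and 0% of all genes by edgeR, and by DESeq2 in 14 members and 10.7% of genes. DESeq2 called 17 members higher at the fold and unadjusted p, beside 4.58% of 29337 genes without a filter on low counts. In 8 members every I/R library was above every sham library (8.42% of all genes). These counts turned on single libraries. Without MIRI 2 edgeR called 21 members and 2433 genes, and without GXNI 1 it called 24 members and 2024 genes. Without MIRI 2 and GXNI 3 together it called 24 members and 2677 genes, against 1002 genes with all 9 libraries. Without any 1 sham library, MIRI 1, MIRI 3 or GXNI 2 it called 0 members, beside 317 to 691 genes. Without GXNI 3 it called 2 members and 796 genes. With MIRI and GXNI joined as 1 group in the fit, where their labels do not enter, it called 9 members and 1274 genes.

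**Figure D2:**
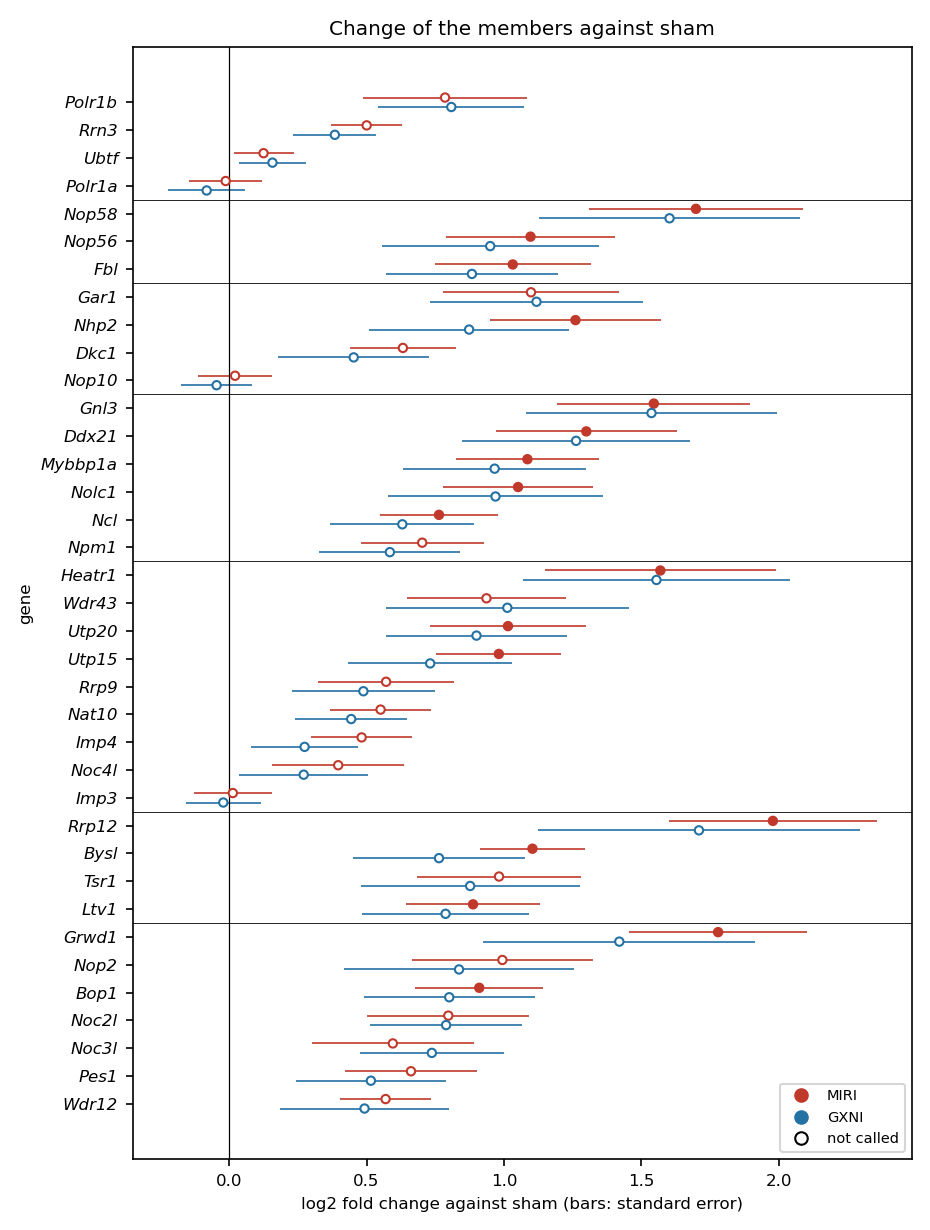
Log2 fold change against sham (x axis, bars of 1 standard error) for the 37 tested members (y axis, grouped by role), in red for MIRI and in blue for GXNI, with filled points for called members. The 17 filled points are all red, and Polr1a, Nop10 and Imp3 lie at 0 within their standard errors.

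Between GXNI and MIRI 0 members were called in either direction, as were 0% of all 14762 genes for higher and 0.0203% for lower. At the same limits of fold and p, the paper, which used DESeq2, reports far more genes changed between these groups than were called here. DESeq2 as run here called 11 genes. For I/R against sham, too, the paper reports more genes than either tool called here in MIRI against sham. The reason for these differences was not tested. The median log2 fold change was -0.10, beside -0.00 for all genes, and 32 of 37 values were negative. The lowest was that of Nhp2, at -0.38 ± 0.46 (SE), and the highest that of Noc3l, at 0.15 ± 0.36. For 0 members did the groups stand apart in either direction, where 1.22% of all genes were higher and 1.49% lower in every GXNI library. The unadjusted p was under 0.05 in 0 members and in 47 of the 14762 genes. An adjusted p of at most 0.05 was reached in 0 members and 0% of genes by both edgeR and DESeq2. DESeq2 called 0 members higher at the fold and unadjusted p, beside 0.0142% of 28122 genes without a filter on low counts. The standard errors of the members, which ran from 0.15 for Ubtf to 0.66 for Rrp12, leave room for differences of either sign. The median was -0.33 without MIRI 2, 0.17 without GXNI 1, -0.43 without GXNI 3, and -0.63 without MIRI 2 and GXNI 3 together. In that last fit 1 member, Wdr43, was called lower, beside 748 genes called in either direction.

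The 4 genes of RNA polymerase I transcription had the smallest median change of the 7 roles. By edgeR 0 were called in any comparison, and DESeq2 called Polr1b higher in GXNI against sham. Polr1a encodes the largest subunit of the enzyme and lies on chromosome 6, bases 71909053 to 71984935 of the forward strand (genome build GRCm38, as for all positions here). It was at 56.2, 47.9 and 53.8 CPM in the sham libraries, 56.4, 52.7 and 47 CPM in the MIRI libraries and 43.3, 50.9 and 54.2 CPM in the GXNI libraries. The 3 groups overlapped, and the log2 fold change was -0.05 ± 0.12 over all I/R libraries. Polr1b, the second-largest subunit, lies on chromosome 2, bases 129100995 to 129126594 of the forward strand, and was at 14, 12.2 and 13.6 CPM in the sham libraries, 28.1, 13 and 27.2 CPM in the MIRI libraries and 14.9, 24.1 and 30.3 CPM in the GXNI libraries. Its values in MIRI 1, MIRI 3, GXNI 2 and GXNI 3 were above all sham values, while MIRI 2 lay within the sham range and GXNI 1 just above it, and the log2 fold change was 0.79 ± 0.30 (adjusted p = 0.152). Rrn3, which brings the polymerase to the promoter of the ribosomal RNA genes, was higher than every sham library in all 6 I/R libraries, but its log2 fold change of 0.44 ± 0.13 fell short of the fold required. Ubtf, the upstream binding factor of those genes, differed from sham by 0.14 ± 0.10 on the log2 scale.

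All 3 box C/D proteins, which form the particle that methylates ribosomal RNA on the ribose, were called higher in MIRI. Nop58, a core protein of the particle, lies on chromosome 1, bases 59684971 to 59719044 of the forward strand. It was at 16.8, 14.9 and 16.3 CPM in the sham libraries, 63.7, 23 and 67.9 CPM in the MIRI libraries and 20.3, 40.5 and 83.6 CPM in the GXNI libraries. Every I/R library was above every sham library, with MIRI 2 and GXNI 1 closest to sham. The log2 fold change was 1.70 ± 0.39 in MIRI (adjusted p = 0.0795), 1.60 ± 0.47 in GXNI (adjusted p = 0.22) and 1.64 ± 0.48 over all I/R libraries (adjusted p = 0.128). Fbl, fibrillarin, the methyltransferase itself, lies on chromosome 7, bases 28169710 to 28179269 of the forward strand, and was at 24, 23 and 21.4 CPM in the sham libraries, 49.2, 27.8 and 62.3 CPM in the MIRI libraries and 23, 46.8 and 55.7 CPM in the GXNI libraries. GXNI 1 fell among the sham libraries and the other 5 I/R libraries did not, and the log2 fold change in MIRI was 1.03 ± 0.28 (adjusted p = 0.0981). Nop56, the partner of Nop58, gave 1.10 ± 0.31 in MIRI and 0.95 ± 0.40 in GXNI.

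Among the 4 box H/ACA proteins, whose particle turns uridine into pseudouridine, Nhp2 was called higher in MIRI and Nop10 had the smallest difference of the 4. Gar1 had the largest change over all I/R libraries. It lies on chromosome 3, bases 129824912 to 129831396 of the reverse strand, and was at 11.2, 11.3 and 10.2 CPM in the sham libraries, 26.5, 12.5 and 30.7 CPM in the MIRI libraries and 11.7, 22.4 and 36.6 CPM in the GXNI libraries. The I/R libraries were all above sham, though MIRI 2 and GXNI 1 by little, and the log2 fold change was 1.10 ± 0.39 (adjusted p = 0.146), which was not called. Nhp2 differed by 1.26 ± 0.31 in MIRI (adjusted p = 0.0865) and Dkc1, the pseudouridine synthase, by 0.63 ± 0.19, which was not called. Nop10, the smallest protein of the particle, lies on chromosome 2, bases 112261926 to 112263269 of the forward strand, and was at 32.2, 32.2 and 31.8 CPM in the sham libraries, 27.9, 33.2 and 36.1 CPM in the MIRI libraries and 27.2, 33.4 and 32 CPM in the GXNI libraries. Its groups overlapped, with a log2 fold change of -0.02 ± 0.12 over all I/R libraries.

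Of the 6 multifunctional nucleolar proteins, 5 were called higher in MIRI, all except Npm1. Gnl3 (nucleostemin), a GTP-binding protein of the nucleolus, lies on chromosome 14, bases 31012433 to 31019152 of the reverse strand. It was at 18.7, 17.2 and 16.3 CPM in the sham libraries, 63.5, 24.9 and 63.2 CPM in the MIRI libraries and 21.2, 45.1 and 84.2 CPM in the GXNI libraries. All I/R libraries were above sham, and the log2 fold change was 1.55 ± 0.35 in MIRI (adjusted p = 0.0786) and 1.53 ± 0.45 over all I/R libraries (adjusted p = 0.128). Ddx21, an RNA helicase, differed from sham by 1.30 ± 0.33 in MIRI. The values of Mybbp1a, a Myb-binding protein, Nolc1, a chaperone of snoRNPs, and Ncl, nucleolin, were 1.09 ± 0.26, 1.05 ± 0.27 and 0.76 ± 0.21. Npm1, nucleophosmin, had the smallest change of the role and was also the member with the highest level per kilobase of exon in sham, at 42.2 CPM per kb. It lies on chromosome 11, bases 33152287 to 33163206 of the reverse strand, and was at 120.0, 108 and 109 CPM in the sham libraries, 190.1, 127 and 229.5 CPM in the MIRI libraries and 110.3, 165 and 227 CPM in the GXNI libraries. GXNI 1 lay within the sham range and MIRI 2 just above it, and the log2 fold change was 0.64 ± 0.25 (adjusted p = 0.164).

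The small-subunit processome, the large particle that forms on the precursor of 18S ribosomal RNA, was split. Heatr1, Utp15 and Utp20 were called higher in MIRI and the other 6 were not. Heatr1, the mouse counterpart of yeast Utp10, lies on chromosome 13, bases 12395027 to 12440289 of the forward strand, and was at 12.4, 10 and 9.97 CPM in the sham libraries, 39.5, 13.3 and 42.7 CPM in the MIRI libraries and 12.6, 28.4 and 53.6 CPM in the GXNI libraries. All I/R libraries exceeded sham, GXNI 1 and MIRI 2 only narrowly, and the log2 fold change was 1.57 ± 0.42 in MIRI (adjusted p = 0.0949) and 1.55 ± 0.48 in GXNI (adjusted p = 0.223). Utp15 and Utp20 differed by 0.98 ± 0.23 and 1.01 ± 0.28 in MIRI. Wdr43, which joins the processome early together with Utp15, had a log2 fold change of 0.94 ± 0.29 in MIRI (adjusted p = 0.113) and its highest value, 81.9 CPM, in GXNI 3. Rrp9, a protein of the U3 particle, Nat10, the RNA acetyltransferase, Imp4 and Noc4l had smaller values between 0.40 and 0.57, none called. Imp3, the partner of Imp4 in binding U3 RNA, lies on chromosome 9, bases 56937475 to 56938398 of the forward strand, and was at 35.6, 32.7 and 36.5 CPM in the sham libraries, 34.5, 30.9 and 40 CPM in the MIRI libraries and 30, 35.7 and 37 CPM in the GXNI libraries. The groups overlapped and the log2 fold change over all I/R libraries was -0.01 ± 0.12.

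In pre-40S maturation and export, 3 of 4 genes were called higher in MIRI and Tsr1 was not. Rrp12, which helps to carry pre-ribosomal particles out of the nucleus, had the largest fold change of all members. It lies on chromosome 19, bases 41862851 to 41896173 of the reverse strand, and was at 22, 16.8 and 22.9 CPM in the sham libraries, 90.6, 39.6 and 112 CPM in the MIRI libraries and 18.1, 70.9 and 111 CPM in the GXNI libraries. MIRI 2 was above every sham library while GXNI 1 lay within the sham range, and the log2 fold change was 1.98 ± 0.38 in MIRI (adjusted p = 0.0664) and 1.83 ± 0.55 over all I/R libraries (adjusted p = 0.129). Bysl (bystin), needed for the last steps of the 40S subunit, differed by 1.10 ± 0.19 in MIRI, with the lowest p of the members (adjusted p = 0.0627). Ltv1, a 40S assembly factor, had the smallest change of the role. It lies on chromosome 10, bases 13178140 to 13193168 of the reverse strand, and was at 17.5, 14.5 and 15.4 CPM in the sham libraries, 30.5, 19.6 and 37.1 CPM in the MIRI libraries and 15.6, 29.3 and 36.3 CPM in the GXNI libraries. GXNI 1 again fell among the sham libraries, and the log2 fold change was 0.89 ± 0.25 in MIRI (adjusted p = 0.0984).

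Grwd1 and Bop1 were called higher in MIRI among the 7 pre-60S genes tested. Grwd1, which binds newly made ribosomal protein L3 and brings it to the particle, lies on chromosome 7, bases 45825223 to 45830944 of the reverse strand. It was at 8.17, 7.83 and 10.2 CPM in the sham libraries, 33.6, 16.8 and 39.1 CPM in the MIRI libraries and 8.15, 25.6 and 35.9 CPM in the GXNI libraries. GXNI 1 lay within the sham range and MIRI 2 above it, and the log2 fold change was 1.78 ± 0.32 in MIRI (adjusted p = 0.0662) and 1.42 ± 0.49 in GXNI (adjusted p = 0.223). Bop1, Pes1 and Wdr12 form 1 complex in 60S maturation, and their log2 fold changes in MIRI were 0.91 ± 0.23, 0.66 ± 0.24 and 0.57 ± 0.17, of which Bop1 alone was called. Wdr12 lies on chromosome 1, bases 60069785 to 60098645 of the reverse strand, and was at 15.3, 12.2 and 15.4 CPM in the sham libraries, 21.4, 18.5 and 23.5 CPM in the MIRI libraries and 11.4, 23.3 and 25.3 CPM in the GXNI libraries. GXNI 1 was below every sham library and the other 5 I/R libraries were above. Nop2, a methyltransferase of 28S ribosomal RNA, gave 0.99 ± 0.33 in MIRI, and Noc2l and Noc3l, which act as a pair, gave 0.80 ± 0.30 and 0.60 ± 0.30. Wdr74 was counted at 2 reads in MIRI 1 and 0 in the other 8 libraries, which at these depths allows up to 3 reads per library or 0.132 to 0.175 CPM by counting error alone. The filter on low counts left it out of the edgeR tests, and DESeq2, run without that filter, did not call it.

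**Figure D3:**
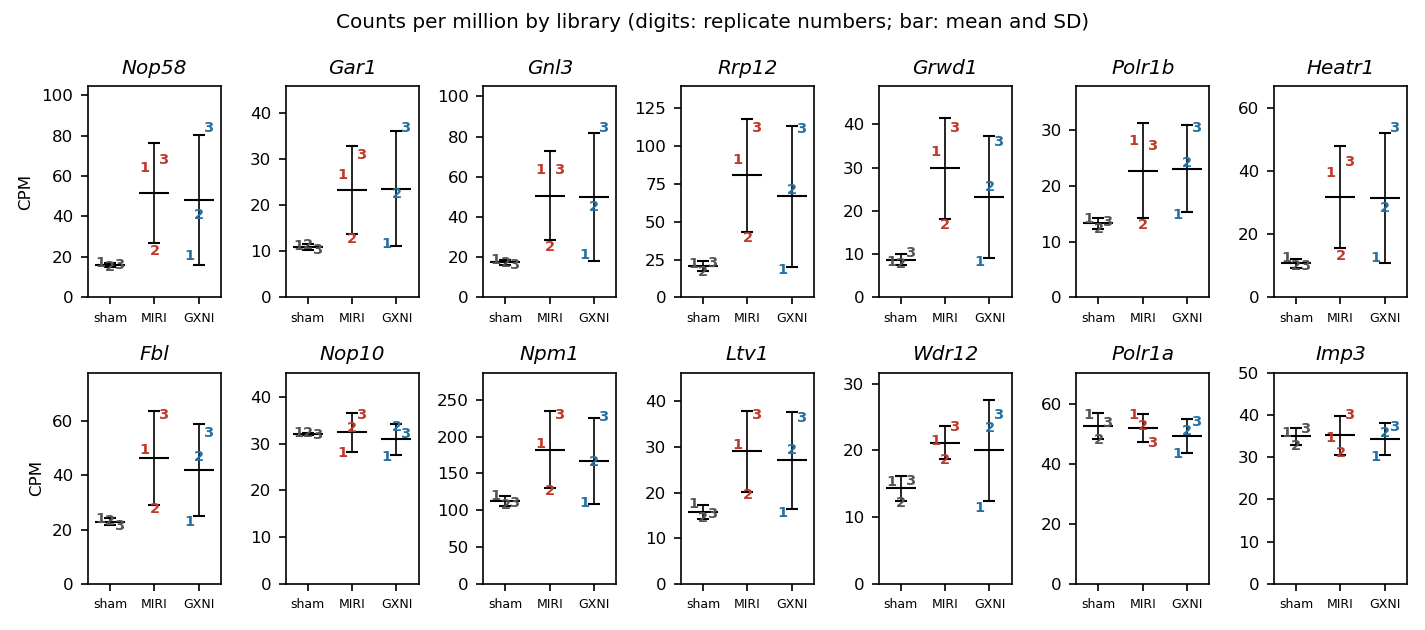
CPM (y axis from 0) of the members with the largest change (upper row) and the smallest change (lower row) of each role, by group (x axis). Digits are the replicate numbers, and the bar gives the mean and SD of 3 mice. In Nop58, Gnl3, Rrp12, Grwd1 and Heatr1 the digits 1 and 3 of MIRI and 2 and 3 of GXNI lie above sham, while MIRI 2 and GXNI 1 lie nearer to it.

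The members with the largest changes were not those with the highest levels in sham. Per kilobase of exon, Npm1 was followed by Imp3 (37.8 CPM per kb), Nop10 (28.9), Ncl (21.1) and Nhp2 (17.5), of which Imp3 and Nop10 did not differ between groups beyond the spread of the libraries. Rrp12 stood in place 22 at 4.74 CPM per kb, Grwd1 in place 26 at 4.24, Nop58 in place 33 at 1.48 and Heatr1 in place 34 at 1.38. Exon length covers all annotated transcripts of a gene, so long unused exons lower these values.

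**Figure D4:**
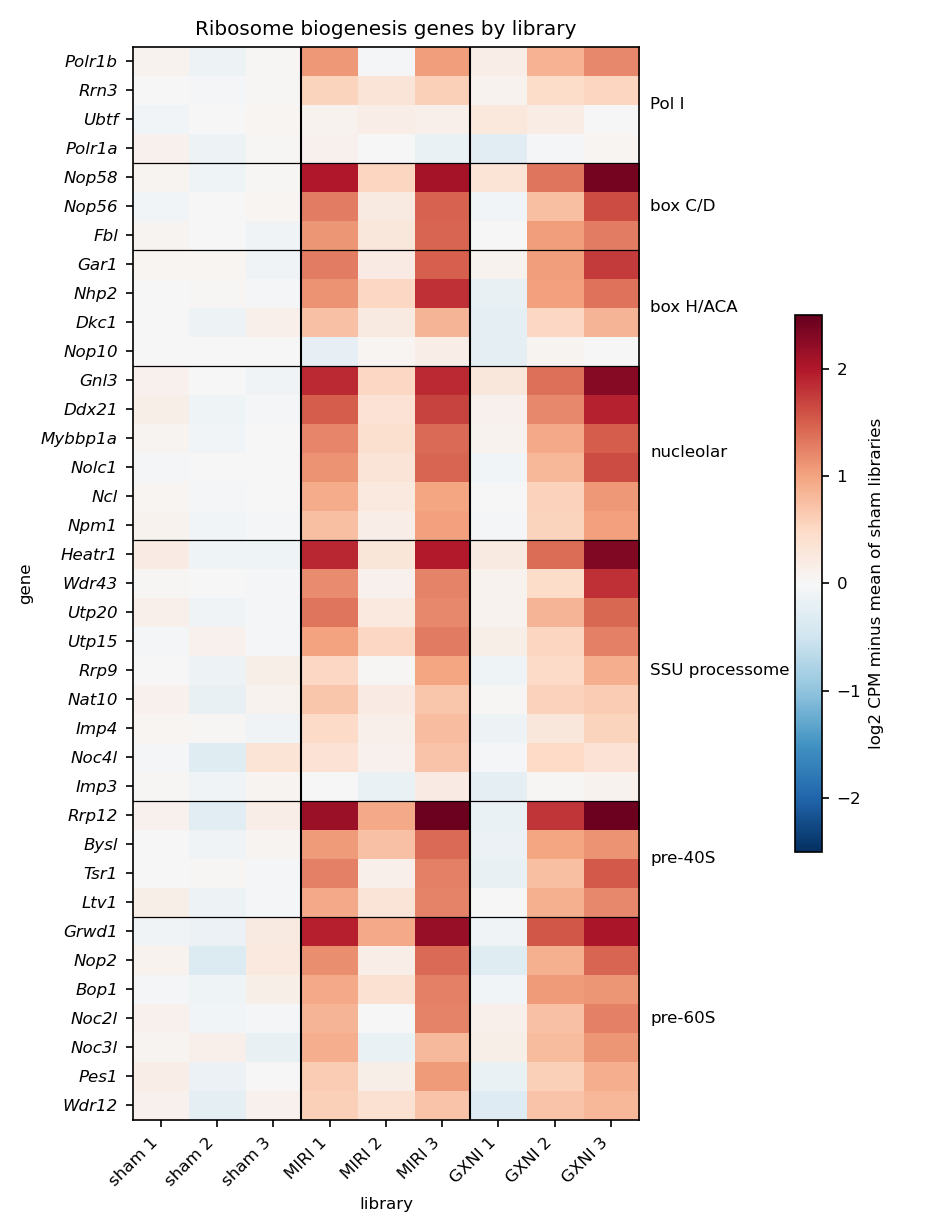
Difference from the sham mean (colour, log2 CPM, red higher and blue lower) for the 37 tested members (rows, by role and by change) in the 9 libraries (columns). The red columns are MIRI 1, MIRI 3, GXNI 2 and GXNI 3. Polr1a, Ubtf, Nop10 and Imp3 stay pale in every library.

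By role, the median difference from sham in MIRI 3 was 1.48 on the log2 scale for box C/D, 1.43 for the nucleolar proteins, 1.33 for pre-40S, 1.24 for pre-60S, 1.17 for box H/ACA, 0.99 for the processome and 0.36 for RNA polymerase I. In GXNI 3 the values were 1.64, 1.57, 1.37, 1.11, 1.10, 0.91 and 0.29 in that order. In GXNI 1 they lay between -0.21 and 0.13. The polymerase genes had the lowest median of the 7 roles in each of MIRI 1, MIRI 3, GXNI 2 and GXNI 3.

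Among 105 other factors of ribosome biogenesis, 22 were called higher and 0 lower in MIRI, 0 in GXNI against sham, 11 higher and 0 lower over all I/R libraries, and 0 in GXNI against MIRI. Of all genes, 6.15% were called higher in MIRI, 2.67% in GXNI against sham and 4.09% over all I/R libraries. The 105 factors had a median log2 fold change of 0.54 in MIRI, 0.41 in GXNI and 0.47 over all I/R libraries. Positive values were found in 99, 95 and 99 of them in that order. Of the 11 called over all I/R libraries, at most 2 a list are named, those with the largest change. For the large subunit they were Rrp15 at 1.46 ± 0.44 and Nifk at 1.41 ± 0.43. For the small subunit they were Wdr46 at 1.20 ± 0.34 and Nol10 at 1.17 ± 0.35. Polr1e, a further subunit of RNA polymerase I, was at 0.72 ± 0.15. Polr1e was at 14.2, 15.2 and 17.8 CPM in the sham libraries, 31.4, 29 and 30.8 CPM in the MIRI libraries and 18.6, 26.7 and 20.9 CPM in the GXNI libraries. Each I/R library was above each sham library, and the MIRI libraries lay close together, with MIRI 2 the lowest.

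The 79 genes of cytosolic ribosomal proteins, the products that these factors assemble, had smaller values. Their median log2 fold change was 0.28 in MIRI, 0.12 in GXNI and 0.20 over all I/R libraries, and 2 were called higher in MIRI, 0 in GXNI and 0 lower in either, where 6.15% and 2.67% of all genes were called higher. Set against that share, the count of 2 of 79 is no result about the group. Log2 fold changes were positive in 78 of the 79 genes in MIRI, 69 in GXNI and 74 over all I/R libraries. Among all genes tested in MIRI, 7310 were positive and 7334 negative. A mostly positive sign was thus not particular to the members. The called genes were Rpl3, the protein that Grwd1 binds, at 1.11 ± 0.24 (adjusted p = 0.0767), and Rps12, at 0.73 ± 0.16, which is named after its value was seen. Rpl3 was at 159.5, 154 and 162 CPM in the sham libraries, 339, 233 and 447 CPM in the MIRI libraries and 163, 311 and 379.5 CPM in the GXNI libraries. It was above sham in all I/R libraries, with GXNI 1 closest.

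**Figure D5:**
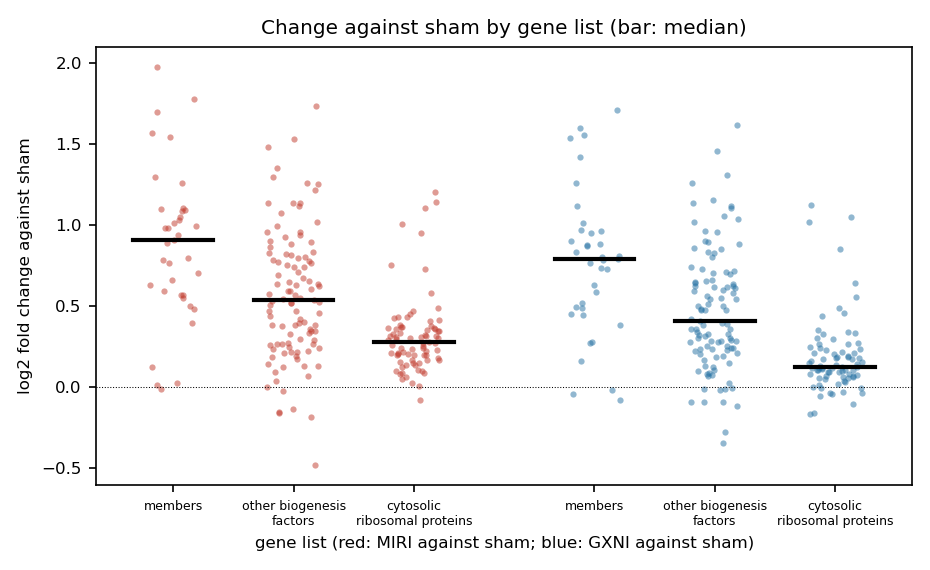
Log2 fold change against sham (y axis) in MIRI (red) and GXNI (blue) for the 37 tested members, 105 other biogenesis factors and 79 ribosomal protein genes (x axis), with 1 point per gene and a bar at the median. The medians fall from 0.91 to 0.54 and 0.28 in MIRI and from 0.79 to 0.41 and 0.12 in GXNI.

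Myc, the transcription factor named above, was at 6.56, 2.38 and 3.36 CPM in the sham libraries, 33.9, 6.36 and 60.1 CPM in the MIRI libraries and 7.80, 12.8 and 63.1 CPM in the GXNI libraries. It was highest in MIRI 1, MIRI 3 and GXNI 3, while MIRI 2 lay just under sham 1. The log2 fold change was 3.04 ± 0.80 in MIRI (adjusted p = 0.0923) and 2.90 ± 0.92 over all I/R libraries (adjusted p = 0.134), of which the first was called. Myc belongs to a list of 11 genes of the MYC network, of which 9 were tested. Over all I/R libraries these 9 had a median log2 fold change of -0.16, with 3 values positive and 6 negative. The list is made up largely of genes other than Myc, such as Max, Mnt, Mxd1 and Mxi1, so this median does not measure the activity of MYC.

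MYC with its partner MAX binds the sequence CACGTG, an E-box that reads the same on both strands, so this word was sought in the promoters. RefSeq windows of 300 bases, 250 before and 50 after the start of transcription (build GRCm38.p6), were found for 34 of the 38 members, in 42 windows. CACGTG occurred in 10 of these 42 windows (23.8%), each of a different gene, beside 7.15% of all 32851 windows. It occurred in 17.9% of 95 windows of the other biogenesis factors and in 11.8% of 68 windows of ribosomal protein genes. In the 50 bases after the start the share was 16.7% of member windows and 1.08% of all windows. These shares were not matched for base composition, and a match is no evidence of binding. The 11 occurrences are shown with the bases around them, 30 bases each on the strand of the gene and 5′ to 3′, with CACGTG in capitals, so that its setting and place can be compared. Positions count from the start site, with negative numbers before it.
Grwd1, chr7:45830740-45830769, reverse strand, first base at 35: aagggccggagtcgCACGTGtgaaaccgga
Imp4, chr1:34439696-34439725, forward strand, first base at -121: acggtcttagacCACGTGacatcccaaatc
Ltv1, chr10:13193092-13193121, reverse strand, first base at 29: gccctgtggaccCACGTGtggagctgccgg
Mybbp1a, chr11:72441347-72441376, forward strand, first base at 41: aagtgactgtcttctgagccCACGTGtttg
Nop2, chr6:125131811-125131840, forward strand, first base at -60: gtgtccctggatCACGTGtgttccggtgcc
Pes1, chr11:3963965-3963994, forward strand, first base at 3: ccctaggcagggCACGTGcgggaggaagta
Rrn3, chr16:13780472-13780501, forward strand, first base at -215: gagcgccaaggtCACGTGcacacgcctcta
Rrn3, chr16:13780639-13780668, forward strand, first base at -48: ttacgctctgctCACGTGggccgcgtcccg
Tsr1, chr11:74898092-74898121, forward strand, first base at 25: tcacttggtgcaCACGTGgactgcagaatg
Utp20, chr10:88826765-88826794, reverse strand, first base at 38: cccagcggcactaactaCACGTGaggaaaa
Wdr43, chr17:71616220-71616249, forward strand, first base at 18: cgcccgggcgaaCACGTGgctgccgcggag
The 10 members with CACGTG had a median log2 fold change of 0.91 over all I/R libraries, from 0.37 in Imp4 to 1.59 in Grwd1, and the 23 tested members with a window but without it had a median of 0.79, from -0.05 to 1.64. Nop58, Gnl3 and Heatr1, with the largest values among the latter, had no such word in their windows, nor had Polr1a, Nop10 and Imp3.

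The libraries with high members also differed in cell type markers. The sum of 9 neutrophil genes, such as S100a8 and S100a9, was between 30.6 and 59.3 CPM in sham, 779, 29.2 and 716 CPM in the MIRI libraries and 52.2, 245 and 765 CPM in the GXNI libraries. All 9 were tested, none was at 0 in any library, and the members were high in the same 4 libraries. The sum of 8 cardiomyocyte genes, such as Myh6 and Tnnt2, was between 40154 and 43295 CPM in sham, 27813, 45381 and 30957 CPM in the MIRI libraries and 36696, 29966 and 28647 CPM in the GXNI libraries. It was lowest in those 4 libraries. Over all I/R libraries 7 of the 8 cardiomyocyte genes had a negative log2 fold change and 1 a positive one, from -0.98 to 0.50. Of the 8, 0 were called, where 2.5% of all genes were called lower. Macrophage genes summed to between 479 and 572 CPM in sham, 333 to 769 CPM in MIRI and 447 to 604 CPM in GXNI. Proliferation genes had lower sums in each I/R library than in sham, at 7.63 to 10.4 CPM in sham, 1.37 to 4.45 CPM in MIRI and 2.07 to 2.10 CPM in GXNI. Mesothelial genes summed to 67.5 CPM in GXNI 1, the I/R library with the lowest members, and to at most 21.6 CPM in the others. The part of these cell types in the levels of the members was not tested.

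Some reads could not be assigned with certainty. Within 7 members lie 21 genes of small nucleolar RNAs, each with 0 to 15 counts per library. Exonic bases of 17 members overlap a gene on the opposite strand, among them Grwd1 with Gm45441, Gnl3 with Pbrm1, Heatr1 with Lgals8 and Bysl with Ccnd3, and the strand setting of the counting is not given in the sources used here, so reads of such pairs cannot be told apart. Npm1 and many ribosomal protein genes have processed pseudogenes, and as the treatment of reads that match several places is not given either, their values are uncertain.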

How the data were processed

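RNA-seq of 9 mouse hearts was analysed from the counts of reads per gene that the authors deposited, which are whole numbers without normalization. The authors cleaned the reads of adapters, undetermined bases and poor quality and, per the submitters' processing notes, aligned with HISAT2 to mm10 and counted with featureCounts of Subread. Versions, annotation release and strand setting are not given in the sources used here. The 38 members and all other gene lists were chosen with earlier results of these data known. Of 54532 identifiers, 54495 were paired with a GENCODE M21 symbol (GRCm38). The table held 0 columns of other samples. Columns of the authors' own comparisons were not used.

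Groups follow the labels, and replicate numbers come from the sample titles. Each comparison was fitted with edgeR 4.0.16 in R 4.3.3 (TMM normalization, default filter on low counts, quasi-likelihood F test, no covariates), pairs of groups on their 6 libraries and I/R against sham on 9 libraries with 3 groups. Calls used the limits of the study, a change of 1.5-fold or more with an unadjusted p no greater than 0.01. Adjusted p values are Benjamini-Hochberg values over all genes tested. The standard error (SE) is the size of the log2 fold change divided by the square root of F. Log2 CPM used a prior count of 0.5. The 14 members described with all 9 values are those with the largest and smallest change of each role in I/R against sham. From other lists, called genes with the largest change in that comparison (at most 2 a list) and Myc were named.

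Alternatives were DESeq2 1.42.0, RLE scaling, no mitochondrial genes, no filter, the replicate number as a block, all 9 libraries or 2 groups in the fit, each library left out, MIRI 2 and GXNI 3 left out, and other call rules. The fits were tested on simulated counts. No pair of libraries agreed within sampling noise (smallest chi-square per degree of freedom 14.4). Promoter windows are those of RefSeq (GRCm38.p6).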

Additional observations from a re-analysis of the deposited data

How the results depend on the processing

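Each group had 3 mice, at depths of 17119454 to 22811295 reads per library. With 1 library left out the median log2 fold change of the members ranged from 0.67 to 0.97 in I/R against sham, from 0.69 to 1.11 in MIRI against sham, from 0.41 to 1.07 in GXNI against sham and from -0.43 to 0.17 in GXNI against MIRI, where its sign thus depended on the library left out. Without MIRI 2 and GXNI 3 the last of these was -0.63. RLE scaling and leaving out mitochondrial genes changed 0 of the 4 counts of members called by over 1.5 times.

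In I/R against sham, where 5 members and 1002 genes were called, DESeq2 called 17 members and 1944 genes, a fit without the filter 17 and 1893, 2 groups in the fit 9 members, and the fit without MIRI 2 and GXNI 3 called 24 and 2677. With 1 library left out the counts ran from 0 to 24 members and from 317 to 2433 genes. In MIRI against sham, with 17 members and 1313 genes, DESeq2 called 2251 genes, no filter gave 2406, all 9 libraries in the fit gave 3 members and 800 genes, and without MIRI 2 and GXNI 3 there were 31 and 4592. The range with 1 library left out was 3 to 31 members and 514 to 4592 genes. In GXNI against sham, with 0 members and 618 genes, DESeq2 called 9 and 1401 and no filter gave 11 and 1425. The range with 1 library left out was 0 to 29 members and 175 to 2665 genes. In GXNI against MIRI, with 0 members and 3 genes, DESeq2 called 11 genes, no filter gave 10, all 9 libraries in the fit gave 9, and without MIRI 2 and GXNI 3 there were 1 member and 748 genes. The range with 1 library left out was 0 members and 1 to 12 genes. At an adjusted p of at most 0.05 edgeR called 0 members in each comparison and 0, 2, 0 and 0 genes in this order. The causes were not tested.

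With the replicate number as a block, 1 member was called in I/R against sham, 10 in MIRI against sham and 0 in both other comparisons. The correlations of the deviations of same-numbered libraries from their group means ran from -0.44 for MIRI 1 and GXNI 1 to 0.70 for MIRI 3 and GXNI 3. Not every pair was over 0.1, so the numbers were not taken to pair the mice. Of 1155 values of the 21 named genes under other settings, 944 kept their side of the threshold, 120 lost a call and 91 gained one.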
